A study of Mus musculus with 24 samples.

Results

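Transcripts of 9 genes for nitric oxide synthesis and arginine use were measured by RNA sequencing in a mouse macrophage line before and after lipopolysaccharide (LPS). The genes were listed by name: Nos2, Arg1, Arg2, Ass1, Asl, Gch1, Gchfr, Odc1 and Ddah2. All 9 were found among the 25160 genes of the deposited table, each represented by its RefSeq transcript with the highest mean count, and 8 of them had enough reads to be tested with 12213 genes in all. Arg1 was the 1 member left out by the filter on low counts. Nos2 had 3 transcripts in the table, Ddah2 had 2 and the other members had 1 each.

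The cells were RAW 264.7 macrophages, an established mouse line. Stable transfection had given 2 derivatives, each 1 stable line: one carried a doxycycline-inducible construct for Nur77, the nuclear receptor encoded by Nr4a1, and the other an inducible construct for GFP as the control. All groups received 50 ng/ml doxycycline for 18 h, and LPS, the bacterial cell wall component sensed by Toll-like receptor 4, was then given at 500 ng/ml for 0, 1 or 5 h. The 6 groups of line and time held 4 libraries each, 24 in all. Whether replicates were separate cultures is not stated in the labels, and p-values therefore reflect only the scatter among these libraries, part or all of which may be technical. With 1 line per construct, the construct and any other difference between the lines cannot be told apart.

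Inducible nitric oxide synthase, encoded by Nos2, makes nitric oxide and citrulline from arginine and is a classical product of macrophages exposed to bacteria. Citrulline is turned back into arginine by argininosuccinate synthase (Ass1) and argininosuccinate lyase (Asl). Arginases (Arg1 in the cytosol, Arg2 in mitochondria) compete for the same arginine and release ornithine, which ornithine decarboxylase (Odc1) commits to polyamine synthesis. The synthase needs the cofactor tetrahydrobiopterin, whose first committed enzyme is GTP cyclohydrolase (Gch1), held in check by the feedback regulator encoded by Gchfr. Ddah2 belongs to the family of dimethylarginine dimethylaminohydrolases, which are known for clearing methylarginines that inhibit nitric oxide synthases.

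Library totals ran from 8137306 to 29279140 counts, with a median of 15017250. Nr4a1 stood at 3.07 ± 0.376 CPM (counts scaled to 1000000 per library) in the GFP-labelled line and 3.29 ± 0.408 CPM in the Nur77-labelled line before LPS (SD, n = 4), and the test did not call this difference of 0.09 (log2; adjusted p = 0.885). At 1 h of LPS Nr4a1 was lower in the Nur77-labelled line, at 32.9 ± 15.8 CPM against 61.8 ± 6.69 CPM (-0.91, adjusted p = 0.00481). The 4 libraries of the Nur77-labelled line then held 42.4, 9.29, 40.0 and 39.8 CPM, the 9.29 CPM in replicate 2, described below as standing apart. Those of the GFP-labelled line held 52.0 to 66.8 CPM. The difference without replicate 2 is not given here. At 5 h the difference of 0.73 was not called (adjusted p = 0.113). The construct's sequence is not stated in the labels and its reads may not have been counted at Nr4a1, so the labels cannot be checked this way. The lines are therefore called GFP-labelled and Nur77-labelled. Of 10 macrophage markers, 9 reached 1 CPM in a library, while none of 5 fibroblast, 5 lymphocyte or 4 epithelial markers did, and the epithelial markers were at 0 in every library. Of 5 neutrophil markers 1 did, S100a8, with group means of 1.43 to 3.15 CPM. The macrophage markers summed to 8766 to 8888 CPM in the GFP-labelled line and 5410 to 5684 CPM in the Nur77-labelled line at 0 h, to 8825 to 9989 and 5029 to 6263 CPM at 1 h, and to 8289 to 8824 and 6258 to 6746 CPM at 5 h. The sums follow Lyz2, with 5646 CPM in the GFP-labelled line and 2779 CPM in the Nur77-labelled line at 0 h, and Cd68, with 1186 and 752 CPM. Of 9 tested markers, 3 were lower and 1 higher in the Nur77-labelled line at 0 h (19.7% and 20.2% of all tested genes). The counts were 4 and 1 at 1 h (24.8% and 26.5%), and 4 and 2 at 5 h (24.4% and 21.9%), so the list did not move one way. The part of these markers in the differences between lines was not tested. In such bulk libraries, fewer cells of a type and less RNA per cell cannot be told apart.

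Replicate 2 of the Nur77-labelled line at 1 h stood apart from the other 3 libraries of its group, with a lowest correlation to them of 0.976, against 0.988 or more within the other groups. Its Odc1 level was 4882 CPM where the other 3 libraries held 1595 to 1720 CPM, its Gch1 level was 66.0 CPM against 29.8 to 38.9 CPM, and its Nos2 level was 1.08 CPM against 0.0416 to 0.179 CPM. Because all groups share 1 estimate of the spread, this library also bears on tests at 0 h and 5 h, and results that change without it are given both ways. The other 3 libraries were not uniform. A chi-square per degree of freedom between the counts of replicates 1 and 3 was 50.7, against 51.2 to 93.0 for pairs with replicate 2. Replicate 4 gave 13.8 and 13.6 with replicates 1 and 3, and no pair within another group was above 23.8.

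Levels are CPM after TMM scaling of the library sizes (trimmed mean of M-values). Differences are log2 fold changes from edgeR's quasi-likelihood test, with Benjamini-Hochberg adjustment over the 12213 genes and a call at an adjusted p under 0.05, and they are positive where the Nur77-labelled line, or the later time, was higher. At 0 h, 5 of the 8 tested members were lower in the Nur77-labelled line and none was higher, where 19.7% of all tested genes were called lower and 20.2% higher. At 1 h of LPS, 5 members were lower and 1 was higher (24.8% and 26.5% of all genes), and at 5 h 5 were lower and none higher (24.4% and 21.9%). The median member difference was -0.40, -0.42 and -0.55 at 0, 1 and 5 h, against 0.019, 0.0056 and 0.0023 over all genes. Nos2, Arg2, Ass1, Asl and Gchfr were the 5 members called lower at each time. Without the library that stood apart, 6 members were lower and 1 higher at 0 h (21.7% and 22.8% of 12317 genes), as Gch1 and Odc1 joined the calls. At 1 h 5 were then lower and 1 higher (25.4% and 25.5%), with Gch1 called lower and Gchfr no longer called (adjusted p = 0.000115 and 0.0574, edgeR). At 5 h 5 were lower and 1, Odc1, was higher (26.7% and 24.6%).

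**Figure D1:**
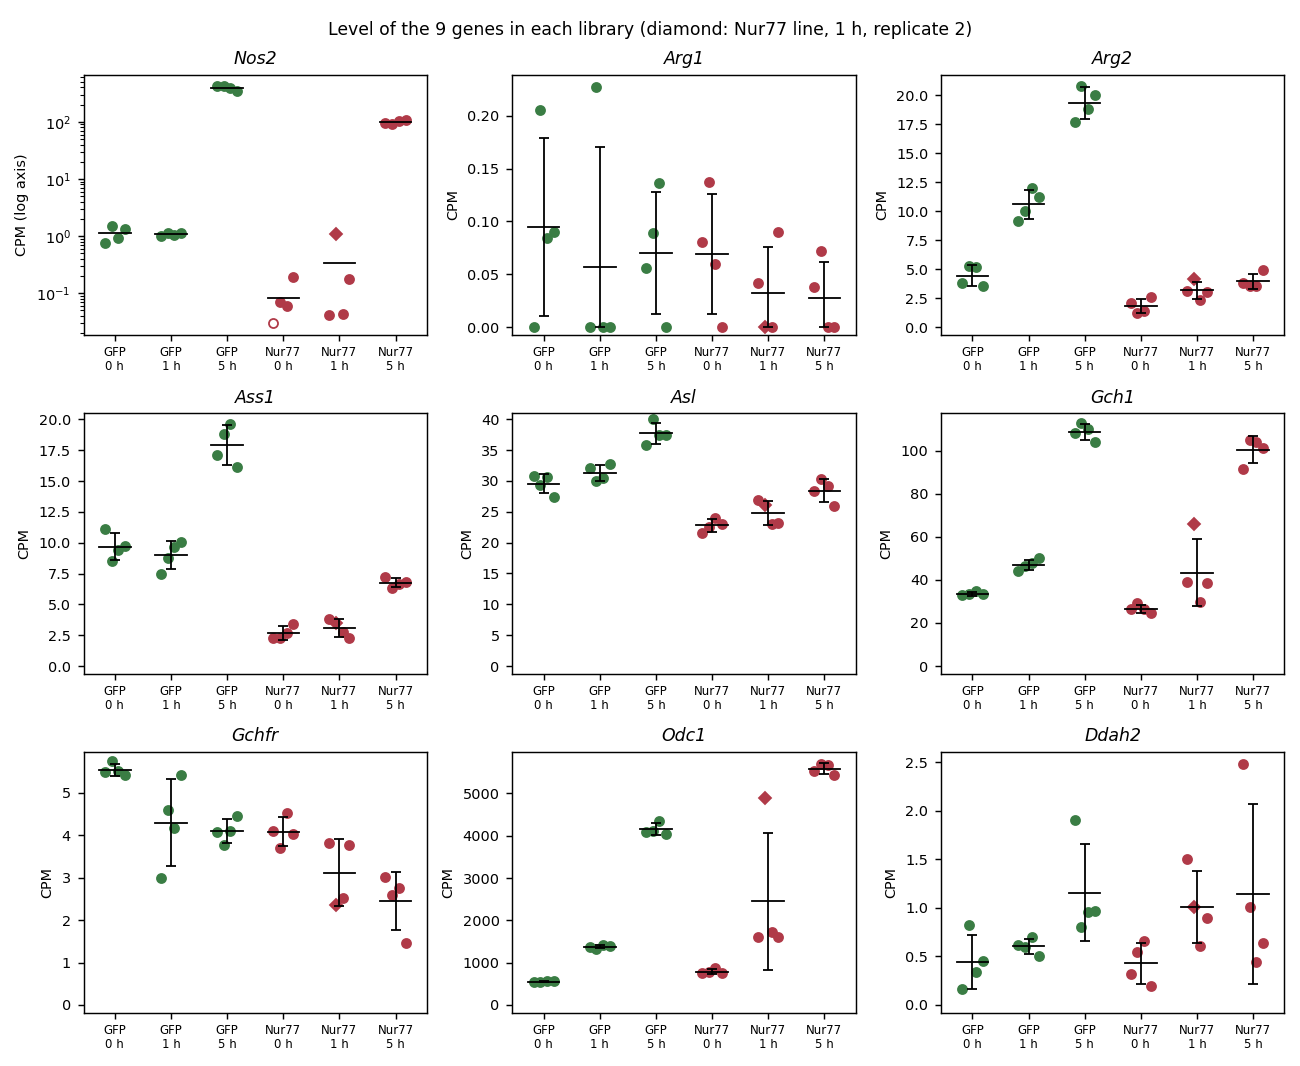
Level in CPM (vertical axis; logarithmic for Nos2, linear from 0 for the others) of each gene in the 24 libraries, by line and hours of LPS (horizontal axis). Points are libraries, horizontal lines are means of 4, bars are SD (cut at 0, and not drawn for Nos2), the open Nos2 point is a library at 0 drawn near the foot of the axis, and the diamond is replicate 2 of the Nur77-labelled line at 1 h, which reached 4882 CPM for Odc1. The Nos2 and Arg2 libraries of the GFP-labelled line lie above those of the Nur77-labelled line at 0 h and 5 h without overlap.

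Nos2 (NM_010927, chromosome 11, 78920787 to 78960226 on the plus strand, GRCm38, 27 exons) was nearly silent before LPS and at 1 h, and at 5 h it rose in both lines to a level that was 4.00-fold lower in the Nur77-labelled line. In the GFP-labelled line it stood at 0.759, 1.505, 0.926 and 1.31 CPM at 0 h, 0.995, 1.14, 1.05 and 1.12 CPM at 1 h and 418, 416, 397 and 352 CPM at 5 h. In the Nur77-labelled line it stood at 0, 0.0687, 0.0595 and 0.195 CPM at 0 h, 0.0416, 1.08, 0.0436 and 0.179 CPM at 1 h and 96.1, 90.95, 102 and 107 CPM at 5 h. The lines did not overlap at 0 h or at 5 h, while at 1 h the replicate that stood apart lay within the range of the GFP-labelled line.

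The difference between lines in Nos2 was -3.64 ± 0.66 (SE) at 0 h (adjusted p = 0.000117), -1.95 ± 0.50 at 1 h (adjusted p = 0.00254) and -2.001 ± 0.14 at 5 h (adjusted p = 4.73e-11). Before LPS this rests on few reads: the 4 libraries of the GFP-labelled line held 82 Nos2 counts and the 4 of the Nur77-labelled line held 5, a ratio of 13.4 with a 95% exact interval of 5.52 to 42.4 that covers counting error only. Without replicate 4 of the Nur77-labelled line at 0 h, the highest of its group, the difference before LPS was -4.44 (adjusted p = 0.000209). At 1 h the difference was -3.85 without the replicate that stood apart (adjusted p = 6.29e-08), and it missed the threshold when the model held just the 8 libraries at 1 h (adjusted p = 0.0544).

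LPS for 5 h raised Nos2 by 8.44 ± 0.22 (log2) in the GFP-labelled line and by 10.07 ± 0.32 in the Nur77-labelled line (adjusted p = 5.68e-20 and 3.62e-18). The starting level of the second line was 5 counts in all, so its fold depends on the prior count of the fit, and it was 10.86 without replicate 4 of that group. The difference between the 5 h responses of the 2 lines was 1.63 ± 0.78 and did not pass the test (adjusted p = 0.227). It passed without the replicate that stood apart (adjusted p = 0.0221) and when the model held just the 16 libraries at 0 h and 5 h (adjusted p = 0.0361), and it was 2.43 without replicate 4 of the Nur77-labelled line at 0 h (adjusted p = 0.184). After 1 h the log2 difference from 0 h was -0.05 in the GFP-labelled line (adjusted p = 0.959). In the Nur77-labelled line it was 1.63 (adjusted p = 0.154), -0.27 without replicate 2 of the 1 h group, and 2.13 without replicate 1 (adjusted p = 0.0390).

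The arginases differed in whether they could be read at all. Arg1 (NM_007482, chromosome 10, 24915207 to 24927470, minus strand), the classical marker of alternatively activated macrophages, had 0 to 5 counts per library. Its counts summed over 4 libraries to 7, 5 and 6 in the GFP-labelled line at 0, 1 and 5 h and to 4, 2 and 2 in the Nur77-labelled line. The 10 libraries at 0 counts allow levels of up to 0.131 to 0.373 CPM, the value of 3 counts in each. No difference in Arg1 was detectable at this depth, and in a fit with no filter on low counts its adjusted p-values were 0.414 to 1.00.

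Arg2 (NM_009705, chromosome 12, 79130788 to 79156301, plus strand), the mitochondrial arginase, was lower in the Nur77-labelled line at every time, and LPS raised it in both lines. In the GFP-labelled line it stood at 3.797, 5.27, 5.22 and 3.52 CPM at 0 h, 9.202, 10.01, 12.02 and 11.2 CPM at 1 h and 17.7, 20.8, 18.8 and 20.04 CPM at 5 h. In the Nur77-labelled line it stood at 2.09, 1.24, 1.43 and 2.59 CPM at 0 h, 3.12, 4.17, 2.36 and 3.05 CPM at 1 h and 3.803, 3.598, 3.56 and 4.92 CPM at 5 h. No library of either line overlapped with the other line at the same time, and the 5 h libraries of the Nur77-labelled line lay within the range from 3.52 CPM to 5.27 CPM that the GFP-labelled line held before LPS.

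The difference between lines in Arg2 was -1.29 ± 0.21 at 0 h, -1.77 ± 0.17 at 1 h and -2.30 ± 0.16 at 5 h (adjusted p = 1.68e-05, 7.49e-09 and 1.51e-11). LPS raised Arg2 at 1 h by 1.25 ± 0.17 in the GFP-labelled line and by 0.77 ± 0.22 in the Nur77-labelled line (adjusted p = 2.05e-06 and 0.00553), and at 5 h by 2.11 ± 0.16 and 1.10 ± 0.21 (adjusted p = 1.26e-11 and 6.66e-05). The 5 h response was smaller in the Nur77-labelled line, with a difference of -1.01 ± 0.27 (adjusted p = 0.0197). That difference missed the threshold without replicate 1 of the Nur77-labelled line at 0 h (-0.94, adjusted p = 0.0517) or without its replicate 4 (-0.78, adjusted p = 0.111).

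A part of the Arg2 signal cannot be assigned with certainty. Of the 1428 exonic bases of Arg2, 285 lie over exons of Vti1b and 116 over those of antisense Gm48780, both on the opposite strand. The labels do not say whether counting used the strand. Vti1b, which encodes a vesicle fusion protein, stood at 159, 169 and 192 CPM in the GFP-labelled line and 86.2, 115 and 120.0 CPM in the Nur77-labelled line at 0, 1 and 5 h. Its counts were 9.44 to 69.8 times those of Arg2, and it moved in the same direction, so its part in the Arg2 values was not tested. Arg2 and Vti1b lie on chromosome 12, whose 435 tested genes had median differences between lines of -0.41, -0.44 and -0.45 at 0, 1 and 5 h. For the 11778 genes elsewhere the medians were 0.03, 0.02 and 0.01.

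Of the citrulline cycle enzymes, Ass1 was 2.64- to 3.60-fold lower in the Nur77-labelled line and Asl was 1.26- to 1.32-fold lower. Ass1 (NM_007494, chromosome 2, 31470270 to 31520670, plus strand) stood at 11.1, 8.48, 9.39 and 9.76 CPM at 0 h, 7.46, 8.78, 9.67 and 10.1 CPM at 1 h and 17.1, 18.8, 19.6 and 16.1 CPM at 5 h in the GFP-labelled line. The Nur77-labelled line held 2.26, 2.27, 2.68 and 3.44 CPM at 0 h, 3.79, 3.500, 2.79 and 2.24 CPM at 1 h and 7.23, 6.33, 6.68 and 6.83 CPM at 5 h. Every library of the Nur77-labelled line, including those after 5 h of LPS, was below the lowest library of the GFP-labelled line, which held 7.46 CPM at 1 h.

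The difference between lines in Ass1 was -1.85 ± 0.15 at 0 h, -1.53 ± 0.14 at 1 h and -1.40 ± 0.13 at 5 h (adjusted p = 1.82e-10, 3.24e-09 and 1.14e-09). LPS for 5 h raised Ass1 by 0.89 ± 0.12 in the GFP-labelled line and 1.34 ± 0.15 in the Nur77-labelled line (adjusted p = 4.51e-07 and 2.89e-08), while 1 h gave -0.09 and 0.23, neither past the test (adjusted p = 0.742 and 0.268). The difference of the 5 h responses was 0.45 with a 95% interval of 0.04 to 0.85 and did not pass the test (adjusted p = 0.180). These values are uncertain as to locus: Gm5424, a processed pseudogene on chromosome 10, matches Ass1 at 99.5% identity over 1240 of its 1696 bases, and its counts were 0.932 to 1.00 times those of Ass1 in the 24 libraries. Reads of the gene and of the pseudogene cannot be told apart in this table.

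Asl (NM_133768, chromosome 5, 130011258 to 130024381, minus strand) stood at 30.8, 29.4, 30.6 and 27.4 CPM at 0 h and 35.8, 40.01, 37.5 and 37.5 CPM at 5 h in the GFP-labelled line. The Nur77-labelled line held 21.6, 22.5, 24.02 and 23.1 CPM at 0 h and 28.4, 30.4, 29.2 and 25.9 CPM at 5 h, below the GFP-labelled line in every library of the same time. The difference between lines was -0.37 ± 0.07, -0.33 ± 0.07 and -0.41 ± 0.07 at 0, 1 and 5 h (adjusted p = 0.000104, 0.000282 and 2.08e-05). LPS for 5 h raised Asl by 0.35 in the GFP-labelled line and 0.32 in the Nur77-labelled line (adjusted p = 5.71e-05 and 0.000268), and the difference of these responses had a 95% interval of -0.23 to 0.17. Asl was thus lower in the Nur77-labelled line at each time and rose at 5 h in both lines, as did Ass1.

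**Figure D2:**
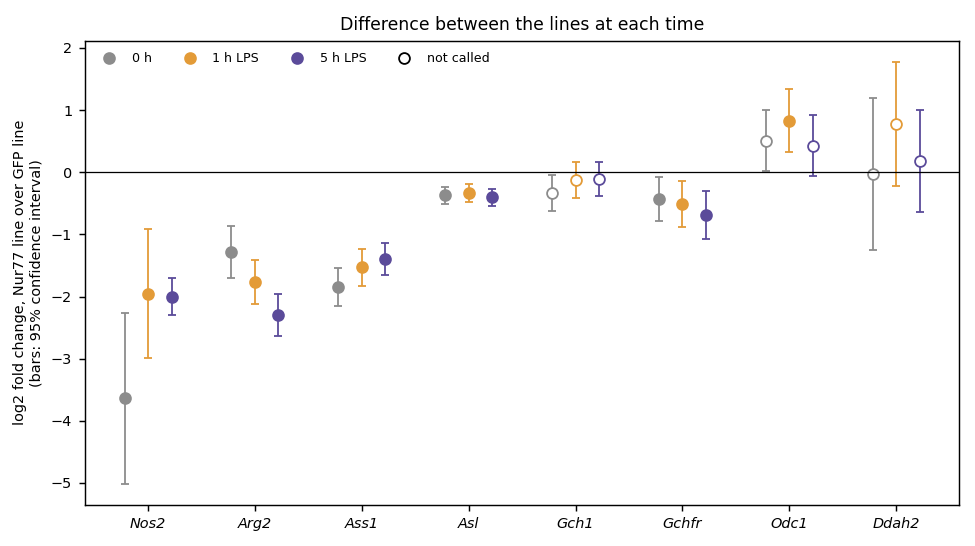
Log2 fold change of the Nur77-labelled over the GFP-labelled line (vertical axis) for the 8 tested members at 0, 1 and 5 h of LPS (colours). Points are estimates from 4 libraries per group, filled where the adjusted p was under 0.05, and bars are 95% confidence intervals; Nos2, Arg2, Ass1, Asl and Gchfr lie below 0 at each time, and Odc1 is called only at 1 h.

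The cofactor genes moved apart after LPS: Gch1 rose and Gchfr fell. Gch1 (NM_008102, chromosome 14, 47153895 to 47189413, minus strand) stood at 32.8, 33.3, 34.9 and 33.2 CPM at 0 h, 44.1, 46.3, 47.6 and 49.96 CPM at 1 h and 108, 113, 109.8 and 104 CPM at 5 h in the GFP-labelled line. The Nur77-labelled line held 26.7, 29.04, 26.5 and 24.4 CPM at 0 h, 38.9, 65.96, 29.8 and 38.7 CPM at 1 h and 91.4, 105, 104 and 101 CPM at 5 h. The libraries of the 2 lines did not overlap at 0 h and overlapped at 5 h, and at 1 h replicate 2 of the Nur77-labelled line was above, and its other 3 libraries below, all of the GFP-labelled line.

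LPS raised Gch1 at 1 h by 0.49 ± 0.14 in the GFP-labelled line and 0.69 ± 0.14 in the Nur77-labelled line (adjusted p = 0.0161 and 0.000431), the latter 0.42 without replicate 2. At 5 h the rises were 1.69 ± 0.14 and 1.91 ± 0.14 (adjusted p = 1.65e-10 and 2.83e-11), and their difference had a 95% interval of -0.19 to 0.62. Between the lines, Gch1 differed by -0.33, -0.13 and -0.12 at 0, 1 and 5 h, none past the test (adjusted p = 0.0679, 0.465 and 0.495). Without the library that stood apart, it was lower in the Nur77-labelled line, at -0.33 at 0 h and -0.40 at 1 h (adjusted p = 0.000566 and 0.000115), and the 5 h difference of -0.12 missed the threshold (adjusted p = 0.146). With just the 8 libraries of a time in the model, Gch1 was called lower at 0 h and at 5 h (adjusted p = 0.00063 and 0.0337). The call at 0 h was also gained without replicate 3 of the Nur77-labelled line at 1 h (adjusted p = 0.0229).

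Gchfr (NM_177157, chromosome 2, 119167788 to 119172389, plus strand) stood at 5.49, 5.75, 5.51 and 5.42 CPM at 0 h and 4.08, 3.78, 4.09 and 4.45 CPM at 5 h in the GFP-labelled line. In the Nur77-labelled line it stood at 4.11, 3.71, 4.52 and 4.02 CPM at 0 h and 3.01, 2.59, 2.75 and 1.46 CPM at 5 h. The lines did not overlap at either time, and at 1 h, where the groups averaged 4.299 and 3.12 CPM, they did.

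The difference between lines in Gchfr was -0.43 ± 0.17, -0.51 ± 0.18 and -0.69 ± 0.19 at 0, 1 and 5 h (adjusted p = 0.0460, 0.0210 and 0.00361). The call at 0 h held in 9 of the 24 fits that left out 1 library, with adjusted p-values up to 0.104. The call at 1 h was lost without replicates 2 or 4 of the GFP-labelled line or replicates 2 or 3 of the Nur77-labelled line at that time (adjusted p = 0.0531, 0.117, 0.0574 and 0.0850), and the 5 h call held in all 24. After 5 h of LPS, Gchfr fell by 0.44 in the GFP-labelled line (adjusted p = 0.0255), a call lost without replicate 2 of the 0 h group (adjusted p = 0.0502) or replicate 2 or 3 of the 5 h group (adjusted p = 0.0689 and 0.0552). The fall in the Nur77-labelled line was -0.69 ± 0.19 (adjusted p = 0.00246).

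Scaled per kilobase of transcript, the log2 ratio of Gch1 to Gchfr within a library averaged 0.49 ± 0.06 at 0 h, 1.36 ± 0.29 at 1 h and 2.61 ± 0.15 at 5 h in the GFP-labelled line (SD, n = 4). In the Nur77-labelled line it averaged 0.59 ± 0.18, 1.65 ± 0.69 and 3.28 ± 0.49. The 5 h libraries of the Nur77-labelled line, from 2.81 to 3.97, lay above the 2.43 to 2.79 of the GFP-labelled line. This ratio is given as a description.

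Odc1 (NM_013614, chromosome 12, 17544808 to 17551502, plus strand) was by far the most abundant member, and LPS raised it at both times in both lines. In the GFP-labelled line it stood at 543, 543, 572 and 555 CPM at 0 h, 1377, 1319, 1419 and 1394 CPM at 1 h and 4091, 4111, 4360.1 and 4051 CPM at 5 h. The Nur77-labelled line held 752, 783, 866 and 750.2 CPM at 0 h, 1609, 4882, 1719.7 and 1595 CPM at 1 h and 5542, 5701, 5676 and 5424 CPM at 5 h. Every library of the Nur77-labelled line was above every library of the GFP-labelled line of the same time.

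LPS raised Odc1 at 1 h by 1.32 ± 0.24 in the GFP-labelled line and 1.64 ± 0.24 in the Nur77-labelled line (adjusted p = 0.000407 and 2.01e-05), the latter 1.06 without replicate 2. At 5 h the rises were 2.91 ± 0.26 and 2.83 ± 0.25 (adjusted p = 3.50e-09 and 4.68e-09). Between the lines Odc1 differed by 0.51 ± 0.24 at 0 h (adjusted p = 0.0986), 0.83 ± 0.24 at 1 h (adjusted p = 0.00660) and 0.43 ± 0.24 at 5 h (adjusted p = 0.150), with a call at 1 h alone in the model of all libraries. With just the 8 libraries of a time in the model, the calls were at 0 h and 5 h (adjusted p = 3.88e-06 and 2.37e-09) and the 1 h difference missed the threshold (adjusted p = 0.0917). Without the library that stood apart all 3 differences were called higher in the Nur77-labelled line, at 0.51, 0.25 and 0.43 (adjusted p = 4.22e-10, 9.76e-05 and 8.25e-09), and the 1 h value was smaller than the one over all libraries.

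The difference of the 1 h response of Odc1 between lines turned with that library, from 0.32 over all libraries (adjusted p = 0.611) to -0.26 without it (adjusted p = 0.0434). At 5 h this difference had a 95% interval of -0.78 to 0.62. Odc1 lies on chromosome 12, where the median gene was lower in the Nur77-labelled line, and its own difference had the opposite sign. Processed copies of Odc1 exist in the genome, and 14 other genes matched its transcript at 90% identity or more over at least 200 bases. The 1 of them in the table, AW146154, had at most 0.0135 times the Odc1 counts.

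Ddah2 (NM_001190449, chromosome 17, 35059035 to 35062099, plus strand) was close to the limit of detection, with group means from 0.430 to 1.16 CPM. It stood at 0.169, 0.821, 0.337 and 0.452 CPM at 0 h and 1.899, 0.801, 0.955 and 0.965 CPM at 5 h in the GFP-labelled line, and at 0.322, 0.549, 0.654 and 0.195 CPM and 2.49, 1.01, 0.445 and 0.638 CPM in the Nur77-labelled line. The highest library of each 5 h group was its replicate 1, and the lines overlapped at each of these times. LPS for 5 h raised it by 1.35 ± 0.48 in the GFP-labelled line and 1.55 ± 0.50 in the Nur77-labelled line (adjusted p = 0.0166 and 0.00790).

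Both rises of Ddah2 rested on single libraries. Without replicate 1 of the 5 h group the values were 1.01 in the GFP-labelled line (adjusted p = 0.0898) and 0.67 in the Nur77-labelled line (adjusted p = 0.250), and without replicate 3 of the 0 h group of the GFP-labelled line the first was 1.19 (adjusted p = 0.0590). Between the lines the differences in Ddah2 were -0.02, 0.77 and 0.18 at 0, 1 and 5 h, with 95% intervals of -1.24 to 1.20, -0.23 to 1.78 and -0.65 to 1.01, none past the test (adjusted p = 0.984, 0.188 and 0.741).

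Over the members, 1 h of LPS raised 3 of 8 and lowered none in each line: Arg2, Gch1 and Odc1. The shares of all tested genes with a call were 9.74% higher and 7.63% lower in the GFP-labelled line, and 22.5% and 21.8% in the Nur77-labelled line. After 5 h, 7 of 8 members were higher and 1, Gchfr, was lower in each line, where calls over all genes were 30.6% higher and 31.9% lower in the GFP-labelled line, and 32.5% and 34.1% in the Nur77-labelled line. The median member response at 5 h was 1.52 in the GFP-labelled line and 1.45 in the Nur77-labelled line, against -0.020 and -0.028 over all genes. The 2 lines have separate 0 h groups, so these responses share no libraries.

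The difference between the LPS responses was called for none of the 8 members at 1 h, against 0.63% of all genes higher and 0.549% lower. At 5 h it was called for 1, Arg2, in the lower direction, where 2.81% of all genes were called higher and 5.13% lower. Without the library that stood apart, 1 member was called at 1 h, Odc1 in the lower direction (0.779% of 12317 genes higher and 1.01% lower). At 5 h 2 were then called, Nos2 higher and Arg2 lower (5.2% and 8.37%).

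**Figure D3:**
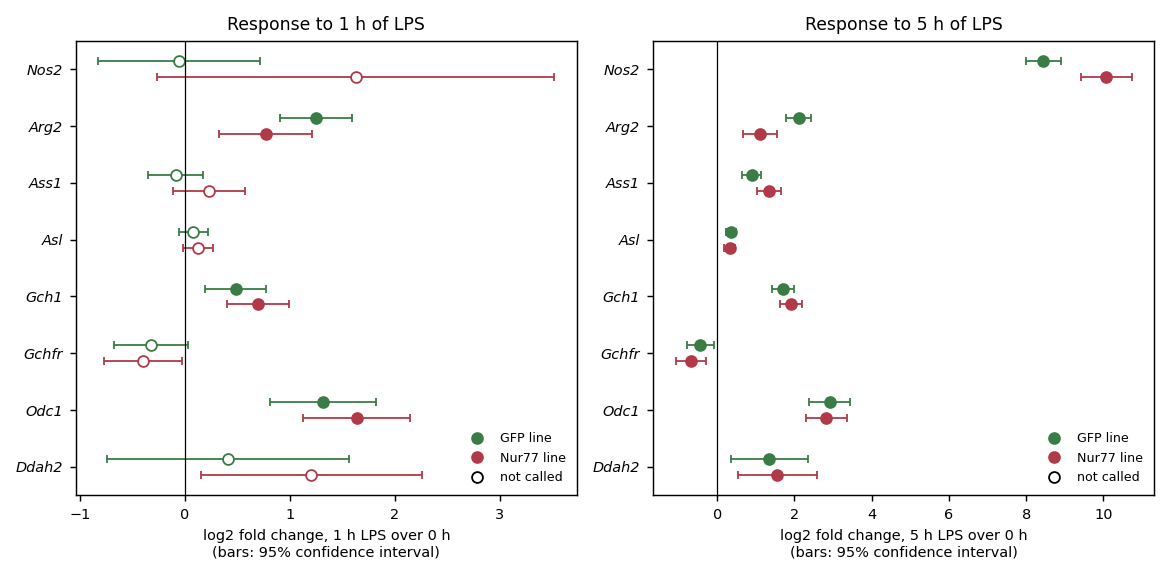
Log2 fold change after 1 h (left) and 5 h (right) of LPS over 0 h (horizontal axes) for the 8 tested members in the GFP-labelled line (green) and the Nur77-labelled line (red). Points are estimates from 4 libraries per group, filled where the adjusted p was under 0.05, and bars are 95% confidence intervals. At 5 h Nos2 reaches 8.44 and 10.07, and Gchfr alone lies below 0. The bar of Nos2 at 10.07 understates its uncertainty, with 5 counts in that line's 0 h group. At 5 h Arg2 is the 1 member whose responses differed between the lines by the test.

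Per kilobase of transcript, the 5 h levels in the GFP-labelled line ran from Odc1 (1881 CPM per kb) through Nos2 (94.4), Gch1 (39.2), Asl (15.6), Arg2 (13.6), Ass1 (10.6) and Gchfr (6.36) to Ddah2 (0.861) and Arg1 (0.0476). In the Nur77-labelled line the order was Odc1 (2529.9), Gch1 (36.2), Nos2 (23.6), Asl (11.8), Ass1 (3.99), Gchfr (3.801), Arg2 (2.78), Ddah2 (0.852) and Arg1 (0.0186). Nos2 thus ranked above its cofactor enzyme in the first line and below it in the second. The log2 ratio of Nos2 to Arg2 per kilobase within a library was 2.80 ± 0.18 in the GFP-labelled line and 3.08 ± 0.16 in the Nur77-labelled line at 5 h (SD, n = 4), with ranges of 2.58 to 3.01 and 2.87 to 3.27 that overlap.

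Promoter windows from RefSeq (GRCm38.p6, 250 bases before to 50 after the start) were matched for 5 of the 9 members: Ass1, Gch1, Gchfr, Odc1 and Ddah2. Each was searched on both strands for a monomer site of the NR4A receptors (NBRE, AAAGGTCA), an AP-1 site (TGANTCA), an interferon response element (GAAANNGAA), a C/EBP site (TTNNGNAA) and an NF-kB site. The 250 bases upstream of Gch1 and Ass1, which LPS raised at 5 h, are shown in the direction of transcription, because LPS is known to act through several of these factors, with matches in capitals. Gch1 is at chr14:47189414-47189663 on the minus strand and Ass1 at chr2:31470020-31470269 on the plus strand. The Odc1 window is not shown, since RefSeq's start for it lies 65 bases inside the transcript as placed here.
Gch1: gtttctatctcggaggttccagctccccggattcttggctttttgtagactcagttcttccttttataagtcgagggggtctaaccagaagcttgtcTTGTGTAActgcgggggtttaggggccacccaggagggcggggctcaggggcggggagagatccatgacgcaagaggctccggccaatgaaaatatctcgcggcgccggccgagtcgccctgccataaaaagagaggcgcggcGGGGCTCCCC
Ass1: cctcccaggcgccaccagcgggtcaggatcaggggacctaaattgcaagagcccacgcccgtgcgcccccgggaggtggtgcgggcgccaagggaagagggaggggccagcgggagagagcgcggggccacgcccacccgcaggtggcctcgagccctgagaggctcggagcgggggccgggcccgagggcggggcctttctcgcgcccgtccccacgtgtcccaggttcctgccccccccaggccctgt
The Gch1 window held 1 match to the C/EBP letters, TTGTGTAA, whose first base is 153 bases before the start, and 1 to the NF-kB site, GGGGCTCCCC, whose first base is 10 bases before it. These matches do not overlap. The other 4 windows held no match to any of the 5 motifs. Of 32817 windows of the same length, 40.7% held the C/EBP letters, 8.46% the NF-kB site, 8.55% the interferon response element, 7.81% the AP-1 site and 1.51% the NBRE. A match is a description of letters and not a binding site.

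The transporters that bring arginine into the cell were read from a list of 9 genes, 6 of them tested. Slc7a2, an inducible cationic amino acid transporter, was near 0 until 5 h, as was Nos2. It stood at 31.6, 32.9, 33.5 and 34.2 CPM at 5 h in the GFP-labelled line and 3.61, 3.38, 3.64 and 4.100 CPM in the Nur77-labelled line, and at 0 to 0.261 CPM in the 16 libraries at 0 h and 1 h. The 5 h groups did not overlap and differed by -3.17 ± 0.14 (adjusted p = 5.34e-16), a larger estimate than that of Nos2, though the 2 were not tested against each other.

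Slc7a7, which exports and exchanges cationic amino acids, was lower at 5 h, at -0.86 ± 0.07, with 79.1 ± 3.82 CPM in the GFP-labelled line and 43.7 ± 2.19 CPM in the Nur77-labelled line (SD, n = 4). Its 5 h response differed between the lines by -0.84 ± 0.11 (adjusted p = 6.82e-06), while that of Slc7a2 differed by -2.57 ± 1.27 from a base near 0 and did not pass the test (adjusted p = 0.310). The mitochondrial ornithine carrier Slc25a15 was higher by 0.57 ± 0.10 (adjusted p = 4.41e-05). In all, the transporters counted 2 higher and 2 lower of 6 tested at 5 h (21.9% and 24.4% of all genes), with a median of 0.08.

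Of 14 listed signals known to induce Nos2, 13 were tested. LPS for 5 h raised 12 in the GFP-labelled line and 11 in the Nur77-labelled line (30.6% and 32.5% of all genes). It lowered none of them (31.9% and 34.1% of all genes). Irf1, an interferon regulatory factor that Nos2 induction is known to need, stood at 219, 218, 239.9 and 238 CPM at 1 h in the GFP-labelled line and 109, 35.6, 98.3 and 98.4 CPM in the Nur77-labelled line. At 5 h it stood at 115, 124, 116 and 118 CPM and 35.4, 33.4, 36.8 and 33.3 CPM. The lines did not overlap at either time, and replicate 2 was the lowest of its group at 1 h.

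Irf1 was lower in the Nur77-labelled line, at -1.42 ± 0.19 at 1 h (adjusted p = 3.28e-06, and -1.17 without replicate 2) and at -1.77 ± 0.20 at 5 h (adjusted p = 2.55e-07). At 0 h the value was 0.40 and did not pass the test (adjusted p = 0.159), and without replicate 2 of the 1 h group it passed as higher (adjusted p = 1.73e-05). Its response to LPS differed between the lines by -1.82 at 1 h and -2.17 at 5 h (adjusted p = 0.00155 and 5.17e-05). The interferon receptor subunit Ifnar1 was lower at 5 h, at -0.42 ± 0.07 (adjusted p = 2.72e-05). The list counted 4 higher and 5 lower of 13 tested between the lines at 5 h (21.9% and 24.4% of all genes). Its median was -0.13, and its members did not move one way.

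Of 6 genes for synthesis and recycling of tetrahydrobiopterin, 5 were tested. LPS for 5 h lowered 3 in the GFP-labelled line and 4 in the Nur77-labelled line (31.9% and 34.1% of all genes). It raised none of them (30.6% and 32.5% of all genes), while Gch1 rose. Spr, the reductase of the last synthesis step, fell by 0.37 in the GFP-labelled line and fell by 0.51 in the Nur77-labelled line (adjusted p = 0.00126 and 4.59e-05). Between the lines at 5 h, the recycling enzyme Qdpr was lower, at -0.45 ± 0.09, in the Nur77-labelled line (adjusted p = 0.000295). At that time the list counted 1 higher and 1 lower of 5 (21.9% and 24.4% of all genes).

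Downstream of Odc1, 13 of 14 listed polyamine genes were tested. Between the lines at 5 h they counted 4 higher and 3 lower of 13 tested (21.9% and 24.4% of all genes), with a median of 0.07. Srm, which encodes spermidine synthase, was higher in the Nur77-labelled line by 0.54 ± 0.06, with 69.5 ± 1.48 CPM in the GFP-labelled line and 101 ± 5.69 CPM in the Nur77-labelled line (adjusted p = 1.79e-08). Mtap, the salvage enzyme for the by-product of polyamine synthesis, and Oaz2, an antizyme that restrains ornithine decarboxylase, were higher by 0.31 and 0.38 (adjusted p = 8.27e-05 and 0.000516). Srm was also higher at 0 h by 0.36 and at 1 h by 0.26 (adjusted p = 1.42e-05 and 0.000512).

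Of 11 listed genes for ornithine, proline, urea and creatine metabolism, 8 were tested. Between the lines they counted 2 higher and 3 lower of 8 tested at 5 h (21.9% and 24.4% of all genes). Pycr1, which makes proline, was higher in the Nur77-labelled line by 1.21, 1.36 and 0.89 at 0, 1 and 5 h (adjusted p = 2.39e-09, 4.48e-10 and 2.26e-07). Prodh, which breaks proline down, was lower, at -2.33, -2.28 and -2.26 (adjusted p = 1.92e-06, 2.29e-06 and 8.82e-06), from 2.07 CPM in the GFP-labelled line to 0.388 CPM at 5 h. Gamt, an enzyme of creatine synthesis, was lower at 5 h, at -0.92 ± 0.23 (adjusted p = 0.00226).

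Of 16 listed genes for other nitric oxide synthases, their partners and nitric oxide handling, 14 were matched in the table and 11 were tested. Between the lines they counted 1 higher and 3 lower of 11 tested at 5 h (21.9% and 24.4% of all genes), with a median of -0.05. Nos1, the neuronal synthase, stood at 7.09, 5.47, 7.66 and 6.19 CPM at 0 h and 3.296, 3.43, 3.23 and 3.41 CPM at 5 h in the GFP-labelled line and at 2.26, 2.33, 3.45 and 2.46 CPM and 0.904, 0.792, 1.04 and 1.55 CPM in the Nur77-labelled line. The lines did not overlap, and the differences were -1.32 ± 0.19 at 0 h and -1.69 ± 0.23 at 5 h (adjusted p = 3.17e-06 and 1.28e-06). After 5 h of LPS, Nos1 fell by 0.99 and fell by 1.36 in the 2 lines (adjusted p = 2.92e-05 and 2.60e-05), the direction opposite to Nos2. Adh5, which removes S-nitrosoglutathione, was lower, at -0.40, at 5 h (adjusted p = 3.34e-06).

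Markers of alternative activation, the state in which Arg1 is known to be high, counted 2 higher and 4 lower of 7 tested at 5 h. The shares of all tested genes were 21.9% higher and 24.4% lower. Clec10a and Mgl2, which encode macrophage galactose-type lectins, were higher in the Nur77-labelled line by 3.10 ± 0.11 and 4.45 ± 0.22 (adjusted p = 1.61e-17 and 2.56e-14), with Clec10a at 33.8 ± 2.401 CPM in the GFP-labelled line and 290.1 ± 12.7 CPM in the Nur77-labelled line. Klf4 was lower, at -0.75 ± 0.10 (adjusted p = 4.48e-07), so the list did not move one way.

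**Figure D4:**
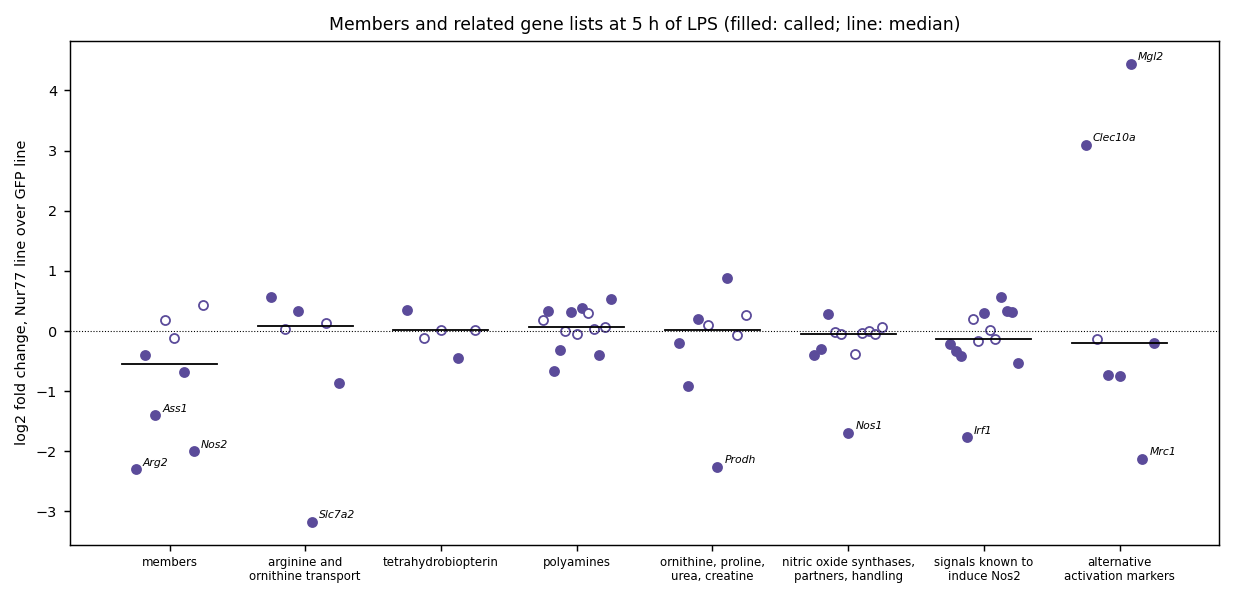
Log2 fold change of the Nur77-labelled over the GFP-labelled line at 5 h of LPS (vertical axis) for the tested members and for 7 related gene lists (horizontal axis). Each point is 1 gene from 4 libraries per group, filled where the adjusted p was under 0.05, short lines are medians, and genes at 1 or more in either direction are named; the member median is -0.55 and the list medians lie between -0.20 and 0.08.

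Genes whose log2 levels over the 24 libraries were most like those of 4 members were sought among non-members that reach 10 CPM in a group. For Nos2 they included Pid1 and Psma6, with Pearson's r of 0.995 and 0.985. For Arg2 they were Eda2r (0.959), Pik3cb (0.952) and Psmb6 (0.942), and for Gch1 they were Prdx5 (0.992), Rhbdf2 (0.987) and Nfe2l1 (0.986). For Ass1 the nearest was its near copy Gm5424 (1.00), then Higd1a (0.978) and Slc28a2b (0.976). The libraries fall into 6 groups, so these values describe shared group patterns and carry no test.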

How the data were processed

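One unnormalized table was deposited by the authors, with estimated counts of 42361 RefSeq transcripts for the 24 libraries. CASAVA 1.8.2, HISAT2 2.1.0 and the build mm10 are named in the submitters' processing notes. Because the counter and its strand setting were not given in the sources used here, reads of overlapping genes on opposite strands may be mixed. The members and lists were chosen with earlier results of these data known.

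Each gene took its transcript with the highest mean, since isoforms repeat nearly the same counts. Counts were rounded to the nearest whole number, filtered with filterByExpr to 12213 genes and scaled by TMM (factors 0.896 to 1.14). A model of 6 group means was fitted to 24 libraries with edgeR 4.0.16 in R 4.3.3 (robust quasi-likelihood, 18 residual degrees of freedom, common biological coefficient of variation 0.0978). The code was tried on simulated counts with the same spread for all genes, changes in the Nur77-labelled line at 5 h alone and no library that stood apart. That trial therefore does not show how the fit behaves at the spread of these data. SEs and 95% intervals of the log2 fold changes were derived from each fold change and the F value of its test. Of the counts, 0.497% belonged to transcripts with no matched symbol, kept under their own identifiers. Near copies were sought with BLAST 2.17.0 (at least 90% identity over 200 bases). Besides the members, the 3 genes of each list with the smallest adjusted p in the comparison described are named; a few genes that this rule or the likeness rule would name are not reported here. Other times or comparisons of these genes, and Irf1 at 0 h and 1 h, were added after their values were seen. Each result was recomputed with a replicate block, with each library left out, with models of just the groups in question, with the mean over transcripts, with other count filters, and with the Wald test and the size factors of DESeq2 1.42.0. Counts of list genes without replicate 2 of the Nur77-labelled line at 1 h were added after seeing the data.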

Additional observations from a re-analysis of the deposited data

Results flagged for a closer look

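Of 54 sets of 4 libraries looked at, 4 held a library far from the other 3. The cutoff gives about 1 in 20 sets by chance for normally distributed values, and 4 of 54 is not far above that rate. For low counts, such as those of Arg1, Ddah2 and Nos2 at 1 h, the rate need not hold. Replicate 2 of the Nur77-labelled line at 1 h was the highest of its group for Nos2 (1.08 CPM) and for Odc1 (4882 CPM). Replicate 2 of the GFP-labelled line at 1 h held 0.228 CPM of Arg1, which is 5 counts, while the other 3 libraries held 0. Replicate 1 of the GFP-labelled line at 5 h held 1.90 CPM of Ddah2, above 0.801 to 0.965 CPM in the other 3. The 5 h response of Arg2 to LPS differed between the lines by -1.01 (adjusted p = 0.0197, edgeR's interaction test).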

How the results depend on the processing

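The 72 member results were computed again under the alternatives, and 68 of them in a fit of only the groups compared, where Ddah2 in 3 comparisons and Nos2 in 1 did not pass the count filter. All 72 kept their direction and side of the threshold with DESeq2 size factors, 71 with no filter on low counts, and 70 with the DESeq2 Wald test; of the 63 that a filter of 1 CPM in 4 libraries left, all did. The replicate numbers did not pair the libraries: correlations of deviations between same-numbered libraries ran from -0.293 to 0.170, with 8 of 60 over 0.1, and 3 of 24 libraries correlated best with their own number. A fit with a replicate block called 4, 6 and 5 members between the lines at 0, 1 and 5 h and changed 1 call, that of Gchfr at 0 h (-0.44, adjusted p = 0.0616). A fit of only the groups compared called 3 members between the lines at 1 h (6 over all libraries), losing Nos2, Gchfr and Odc1. It gained Gch1 (-0.36 and -0.12) and Odc1 (0.49 and 0.42) at 0 h and 5 h, and Ddah2 after 1 h of LPS in the Nur77-labelled line (1.21, adjusted p = 0.0486), and called 2 for the difference of the 5 h responses (1 over all libraries). The DESeq2 test called 5 members after 1 h of LPS in the Nur77-labelled line (3 with edgeR). Leaving out 1 library at a time gave 3 to 5 members for that comparison, 0 to 1 for the difference of the 1 h responses and 0 to 2 for that of the 5 h responses. The shares of all genes called in the block, compared-groups and DESeq2 fits, and in most omissions, are not given here. A change in these member counts therefore cannot be told from a change in the call rate over all genes.

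Directions that turned belonged to values not called over all libraries. With the mean over transcripts, Ddah2 at 0 h turned to 0.015 from -0.02. Under omission of 1 library, the differences between lines ran from -0.33 to 0.35 for Ddah2 at 0 h, from -0.40 to 0.023 for Gch1 at 1 h and from -0.70 to 0.52 for Ddah2 at 5 h. The 1 h response of Nos2 ran from -0.16 to 0.079 in the GFP-labelled line and from -0.27 to 2.43 in the Nur77-labelled line. The difference of the 1 h responses ran from -0.22 to 2.47 for Nos2, -0.0029 to 0.078 for Asl, -0.067 to 0.36 for Gch1, -0.22 to 0.056 for Gchfr and -0.26 to 0.48 for Odc1. That of the 5 h responses ran from -0.065 to 0.0070 for Asl and from -0.68 to 0.54 for Ddah2. The cause was not tested. With 1 library left out, 1667 values kept direction and side, 27 lost a call, 13 gained one and 21 turned. Depth limits Arg1, Ddah2 and Nos2 before 5 h.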

Other observations

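Without replicate 2 of the Nur77-labelled line at 1 h, the listed signals known to induce Nos2 counted 5 higher and 3 lower of 13 between the lines at 0 h, where 4 were higher and 1 lower over all libraries. Between the lines at 1 h the signals then counted 6 higher and 4 lower, against 5 and 3 over all libraries. At 5 h they counted 5 higher and 5 lower, against 4 and 5. The shares of all tested genes called at these times without it were 22.8% higher and 21.7% lower at 0 h, 25.5% and 25.4% at 1 h, and 24.6% and 26.7% at 5 h, against 20.2% and 19.7%, 26.5% and 24.8%, and 21.9% and 24.4% over all libraries. The polyamine genes counted 5 higher and none lower of 13 at 0 h without it, against 4 and none, and the 5 h counts were 5 higher and 3 lower, against 4 and 3. For the genes of ornithine, proline, urea and creatine metabolism the 0 h counts were 5 higher and 2 lower of 8 without it, against 3 and 1. The transporters and the tetrahydrobiopterin genes had the same counts between the lines at 0 h and 5 h either way.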
